A study of Mus musculus with 12 samples.

Results

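Replication-dependent histone genes were examined in mouse oocytes across the pubertal transition. Members were every gene of the count table whose symbol begins with Hist1h, Hist2h, Hist3h or Hist4h, which gave 69 of 24562 genes. By symbol, 6 of these belong to linker histone H1, 19 to H2A, 19 to H2B, 12 to H3 and 13 to H4. Among them, Hist1h2al (H2A) and Hist3h2bb-ps (H2B) are annotated as processed pseudogenes. RNA-Seq had been performed on 12 pools of oocytes from CD-1 mice (n = 3 pools per cohort). The cohorts were PND 13, PND 40 and, separated by body weight, the lighter (PND 16 small) and heavier (PND 16 large) animals of PND 16, where PND is postnatal day. Each pool held 18 to 45 oocytes from antral follicles of ovaries that had received no hormonal stimulation, so single oocytes cannot be resolved. All oocytes were kept in prophase arrest with milrinone during collection, their cumulus cells were stripped mechanically, and no cohort carried a mutation or other treatment. PND 16 large and PND 40 oocytes were the meiotically competent cohorts of the study, and PND 13 and PND 16 small the non-competent cohorts. At PND 16 the study draws this split from data on few mice that it does not show. It describes PND 16 large oocytes as competent but of suboptimal quality.

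Nucleosomes wrap DNA around a core of H2A, H2B, H3 and H4, and H1 binds the DNA between them. Replication-dependent genes are clustered, mostly lack introns, and are transcribed chiefly in S phase, and their mRNAs end in a conserved stem-loop bound by SLBP instead of a poly(A) tail. A growing oocyte does not replicate its DNA, but it is known to store histone mRNA and protein for the embryo. Libraries were made after depletion of ribosomal RNA and not by poly(A) selection, so mRNAs without a tail could be captured.

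By symbol, Hist1 held 55 members on chromosome 13, Hist2 held 10 on chromosome 3, Hist3 held 3 on chromosome 11 and Hist4 held 1 on chromosome 6. Hist1h2al (chr13:51202727-51203065) lies outside the region of the other Hist1 members. The stem-loop was searched anywhere in the annotated GENCODE transcripts of the members as a 16-base pattern that allowed alternative bases at some positions. The first arm of its stem was rich in pyrimidines and the second in purines, and the search did not require the arms to pair. A match was found in 44 of the 69 members, namely 4 H1, 11 H2A, 10 H2B, 8 H3 and 11 H4 genes. The sequences below are those of 6 called members in which it was found, with Hist1h4c as an abundant H4 gene. They are written 5′ to 3′ as DNA of the transcript strand, and capitals mark the 16-base stem-loop.
Hist3h2a: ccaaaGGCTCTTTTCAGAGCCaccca
Hist3h2ba: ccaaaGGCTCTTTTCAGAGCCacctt
Hist1h3c: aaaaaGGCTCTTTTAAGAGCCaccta
Hist1h3e: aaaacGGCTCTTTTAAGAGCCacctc
Hist1h4c: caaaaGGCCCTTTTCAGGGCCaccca
Hist1h4i: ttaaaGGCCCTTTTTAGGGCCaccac
Hist1h4b: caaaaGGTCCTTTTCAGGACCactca
The commonest form, seen in Hist3h2a, occurred in 26 members, and the form of Hist1h3c and Hist1h3e, with another base at the end of the loop, occurred in 6. The H4 genes carried other stems, and the form of Hist1h4c occurred in 7 members. A match did not have to lie at the annotated end. After it, the annotated transcript ran on for 28 bases in Hist1h4b, 74 in Hist1h3c and 169 in Hist3h2ba. It ran on for 330 bases in Hist1h4i, 369 in Hist1h3e, 454 in Hist1h4c and 1643 in Hist3h2a. No match was found in the annotated transcripts of Hist1h1a, Hist1h2aa, Hist1h2ba, Hist2h2bb and Hist2h3b, which says only that these letters are not in them. The annotated exons of Hist1h2aa, Hist1h2ba and Hist2h2bb are only 390, 384 and 381 bases long. A stem-loop beyond an annotated end could not be read, so members without a match are not shown to lack it.

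Promoters of 62 members were matched by gene ID in RefSeq on GRCm38.p6, and 250 bases before each start were searched on both strands. The motifs were the TATA box (TATAAA), the nuclear factor Y motif CCAAT, the octamer ATTTGCAT and the AC box AAACACA. Neighbouring matches may share bases, such as the AT of CCAAT and of the octamer. The octamer was present in 38.9% of H2A and 37.5% of H2B promoters and in 0 of 6 H1, 10 H3 and 12 H4 promoters, compared with 1.61% of all 27025 promoters of the table. The H2A and H2B shares are not independent, since some H2A and H2B genes are neighbours whose promoters overlap. In Hist1h2ae and Hist1h2bg, for example, the same octamer and the same TATAAA were counted for both genes. The AC box was present in 83.3% of H1 promoters vs. 6.22% of all promoters. CCAAT was present in every H1, H2A and H2B promoter, in 80% of H3 promoters and in 25% of H4 promoters, vs. 34.5% of all. TATAAA was present in 46.8% of the members' promoters and 13% of all. The promoters of 2 neighbouring pairs are shown because the genes of each pair are close together and were followed below, with these motifs in capitals on either strand over 150 bases before the start. Hist1h2aa and Hist1h2ba are transcribed away from each other with 305 bases between them, and Hist2h3b and Hist2h2bb lie on the same strand with 610 bases between them. On GRCm38.p6 the windows are chr13:23934287-23934436 on the plus strand for Hist1h2aa and chr13:23934157-23934306 on the minus strand for Hist1h2ba. They are chr3:96268504-96268653 for Hist2h3b and chr3:96269550-96269699 for Hist2h2bb, both on the plus strand.
Hist1h2aa: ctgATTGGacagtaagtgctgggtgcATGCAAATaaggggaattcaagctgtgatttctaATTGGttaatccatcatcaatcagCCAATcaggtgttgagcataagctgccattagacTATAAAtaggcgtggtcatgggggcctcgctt
Hist1h2ba: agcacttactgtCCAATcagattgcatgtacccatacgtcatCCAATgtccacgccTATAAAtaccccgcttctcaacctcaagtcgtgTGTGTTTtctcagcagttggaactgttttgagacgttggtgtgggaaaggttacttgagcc
Hist2h3b: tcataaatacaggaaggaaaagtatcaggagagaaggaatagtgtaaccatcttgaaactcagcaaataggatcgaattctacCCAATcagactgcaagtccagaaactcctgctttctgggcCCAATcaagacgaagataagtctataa
Hist2h2bb: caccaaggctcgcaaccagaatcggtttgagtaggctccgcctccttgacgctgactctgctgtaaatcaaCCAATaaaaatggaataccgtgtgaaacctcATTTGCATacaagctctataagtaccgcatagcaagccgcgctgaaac
In these windows Hist1h2aa and Hist2h2bb held the octamer, and Hist2h3b held CCAAT but no octamer. Hist1h2ba held the octamer only farther from the start, within the 250 bases searched, and this is the octamer of Hist1h2aa read on the other strand. The windows of these neighbours overlap, and the first CCAAT shown for Hist1h2ba is the first ATTGG shown for Hist1h2aa.

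Expression is given as CPM, the count of a gene scaled to 1000000 counts per pool after correction of the totals by TMM. The total count ranged from 17671193 to 27418358 per pool, and histone genes took 0.0361 to 0.0589% of it. Oocyte markers, 15 genes such as Zp3 and Gdf9, summed to 16340 to 20950 CPM. Markers of granulosa cells were present at uneven levels and are given beside the results they move with. Of the 69 members, 46 passed the filter on low counts and were tested (5 H1, 11 H2A, 13 H2B, 8 H3 and 9 H4), 13 had too few counts to be tested, with at most 21 in a pool, and 10 had no count in any pool. A count of 0 allows up to 3 counts, which corresponds to 0.109 to 0.170 CPM across the pools, for counting error only. The 10 members without counts were Hist1h2ao, Hist1h2ap, Hist1h2bq, Hist1h2br, Hist1h4m, Hist1h4n, Hist2h2aa1, Hist2h2aa2, Hist2h3c1 and Hist2h3c2. A median of 8.56% of the 50-base windows of these 10 occurred in no other gene, compared with 56.8% for the other 59 members. Among the 10, however, Hist2h3c1 had 65.3% and Hist2h3c2 36.5% unique windows, and the rest had at most 14.4%. The transcript Gm20634 is annotated across Hist2h3c1 on the same strand. Reads are 50 bases long, so levels of members with a low share of unique windows are uncertain, and how reads with several matches were counted is not given in the sources used here.

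By read share, H1 genes made up 47.5% of the summed CPM of all members, H2B 19.2%, H2A 16.6%, H3 9.03% and H4 7.69%. Summed H1 levels were 237, 187.5 and 207 CPM in the PND 13 pools and 141, 256 and 226 in PND 16 small. They were 181, 186 and 212 in PND 16 large and 321, 247 and 246 at PND 40. The PND 40 pools were above all PND 13 and PND 16 large pools, but 1 PND 16 small pool was higher than 2 of them. H2A sums ranged from 55.5 to 64.3 CPM at PND 40 and from 62.6 to 99.6 in the other 9 pools. H2B sums ranged from 55.7 to 90.3 CPM in 10 pools and were 172.5 in PND 13 replicate 2 and 198.5 in PND 16 small replicate 1. H3 sums ranged from 39.1 to 64.0 CPM in the 6 non-competent pools and from 27.2 to 43.9 in the 6 competent pools, with overlap. H4 sums ranged from 26.1 to 46.7 and from 28.5 to 45.2, respectively. All members together summed to 490 ± 58.1 CPM in non-competent and 440 ± 49.2 CPM in competent pools (mean ± SD, n = 6), a difference close to the SD of each group, and the ranges of 433.6 to 570.3 and 375.8 to 524.9 CPM overlapped.

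**Figure D1:**
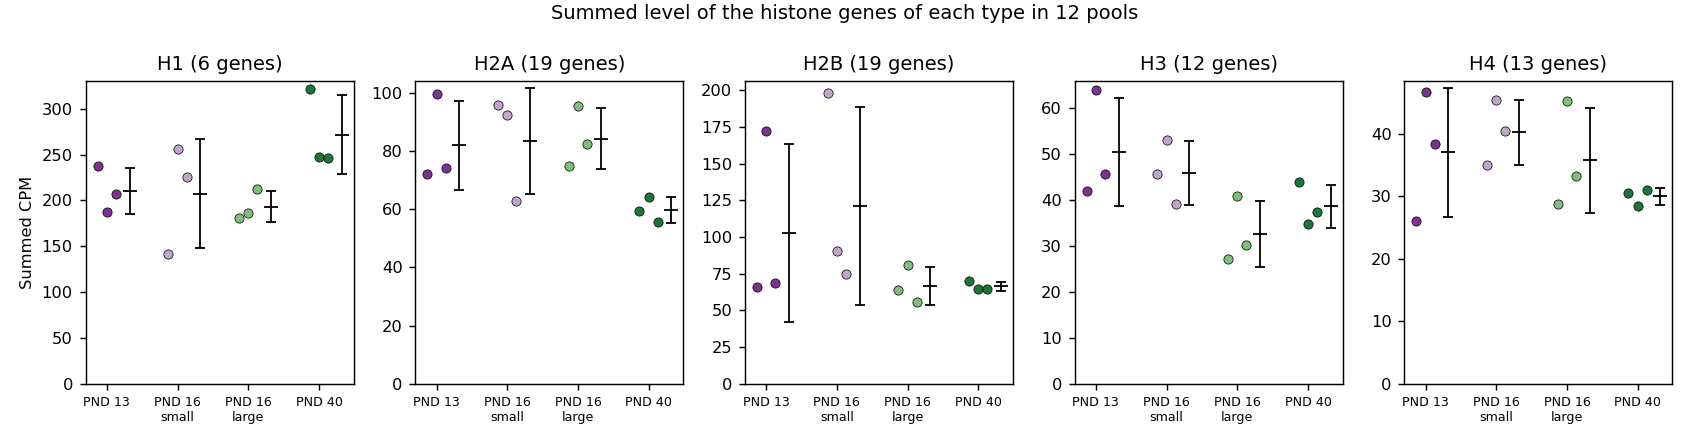
Summed CPM (y axis) of the genes of each histone type in the 4 cohorts (x axis), where each point is 1 pool and the black bars show mean ± SD, n = 3. PND 40 pools sit at 246 to 321 CPM for H1 and at 55.5 to 64.3 CPM for H2A, and PND 13 replicate 2 and PND 16 small replicate 1 stand above all other pools for H2B.

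Per length of annotated exon, the most abundant members were Hist1h1a (264 CPM per kb), Hist1h2aa (100.5), Hist2h2bb (78.2), Hist1h2ba (39.0), Hist1h2bk (29.6) and Hist1h2bj (22.2). The H3 and H4 genes were lower, with Hist1h3e at 17.0 and Hist1h4c at 13.2 CPM per kb. The order of Hist1h2bk and Hist1h2bj rests on genes with 25.8 and 40.6% unique windows. Annotated exon lengths differ widely, so this ranking depends on the annotation. They are 381 bases for Hist2h2bb and 390 for Hist1h2aa, compared with 2146 for Hist3h2a and 7425 for Hist1h1d.

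Hist1h1a encodes a somatic H1 subtype and accounted for 88.5% of the H1 reads, and every 50-base window of it was unique. Its level was 197, 173 and 172 CPM in the PND 13 pools, 129, 212 and 199.5 in PND 16 small, 159.8, 163 and 192 in PND 16 large, and 296, 225 and 225 at PND 40. All PND 40 pools were therefore above all 9 other pools. Mean levels were 248 ± 40.9 CPM at PND 40 and 172 ± 17.67 in PND 16 large (mean ± SD, n = 3), and the log2 fold change of 0.53 ± 0.17 (SE) did not pass the test (adjusted p = 0.0839, edgeR quasi-likelihood with Benjamini-Hochberg adjustment). The same held for PND 40 vs. PND 13 (0.46 ± 0.17, adjusted p = 0.0558) and PND 40 vs. PND 16 small (0.46 ± 0.17, adjusted p = 0.0571). The other H1 genes were far lower. Hist1h1c was 2.96, 4.38 and 3.20 CPM at PND 40 and 6.75 to 7.61 in PND 16 large, without overlap, with a log2 fold change of -1.002 ± 0.49 that did not pass (adjusted p = 0.254). Hist1h1d moved the other way between these cohorts, with 11.02, 9.16 and 10.51 CPM at PND 40 and 4.87, 7.497 and 6.05 in PND 16 large (0.74 ± 0.34, adjusted p = 0.22). Hist1h1t, the testis H1 gene, had 20 counts in all 12 pools, at most 8 in a pool, and was not tested.

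Hist1h2aa and Hist1h2ba encode TH2A and TH2B, variants known from testis and oocyte, and neither was called in any comparison. Hist1h2aa was 32.8, 49.9 and 35.9 CPM at PND 13, 46.6, 51.3 and 33.5 in PND 16 small, 36.9, 45.0 and 38.2 in PND 16 large, and 31.7, 35.5 and 33.0 at PND 40. Hist1h2ba was 9.36, 16.3 and 12.4 CPM at PND 13, 14.1, 20.5 and 12.3 in PND 16 small, 15.7, 18.4 and 14.1 in PND 16 large, and 16.6, 12.9 and 16.9 at PND 40. The ranges of the cohorts overlapped for Hist1h2ba in every comparison, and the log2 fold change between competent and non-competent pools was -0.18 ± 0.13 for Hist1h2aa and 0.15 ± 0.16 for Hist1h2ba, neither of which passed (adjusted p = 0.31 and 0.517, edgeR). Hist1h2aa made up 50.7% of all H2A reads, and Hist3h2a a further 31.7%.

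Hist3h2a, a replication-dependent H2A gene outside the large cluster (chr11:58954685-58956830 on mm10, the same sequence as GRCm38), was higher in PND 16 large than in each of the other cohorts. Its level was 31.9, 37.0 and 36.6 CPM in these pools, compared with 22.0, 20.6 and 18.5 at PND 13, 20.6, 24.8 and 20.8 in PND 16 small, and 19.8, 23.3 and 18.0 at PND 40. The 3 PND 16 large pools were above all 9 other pools. The log2 fold change was 0.67 ± 0.13 vs. PND 16 small (adjusted p = 0.0069), 0.79 ± 0.13 vs. PND 13 (adjusted p = 0.00131), and -0.79 ± 0.13 for PND 40 vs. PND 16 large (adjusted p = 0.00438, edgeR). The call remained in each fit that left out 1 pool. Mean levels were 20.4 ± 2.70 CPM at PND 40 and 20.4 ± 1.75 at PND 13 (SD, n = 3), and competent vs. non-competent pools differed by 0.39 ± 0.17, which did not pass (adjusted p = 0.101). Trim17 overlaps the gene on the same strand and had 0.164 to 2.13 CPM, and 98% of the windows of Hist3h2a were unique.

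Hist1h3e was lower at PND 40 than in each of the other cohorts. This H3 gene (chr13:23561534-23562369, minus strand) measured 8.92, 9.44 and 7.97 CPM at PND 40. It measured 14.7, 14.7 and 13.1 CPM at PND 13, 16.4, 20.4 and 17.9 in PND 16 small, and 16.2, 16.2 and 15.01 in PND 16 large. All PND 40 pools were below all 9 others. The log2 fold change of PND 40 was -0.69 ± 0.14 vs. PND 13 (adjusted p = 0.00185), -1.05 ± 0.14 vs. PND 16 small (adjusted p = 1.6e-04) and -0.85 ± 0.14 vs. PND 16 large (adjusted p = 0.00365, edgeR), and each of these calls remained without any 1 pool. Of its windows, 26.6% were unique, so reads of related H3 genes could have been placed on it or lost from it.

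**Figure D2:**
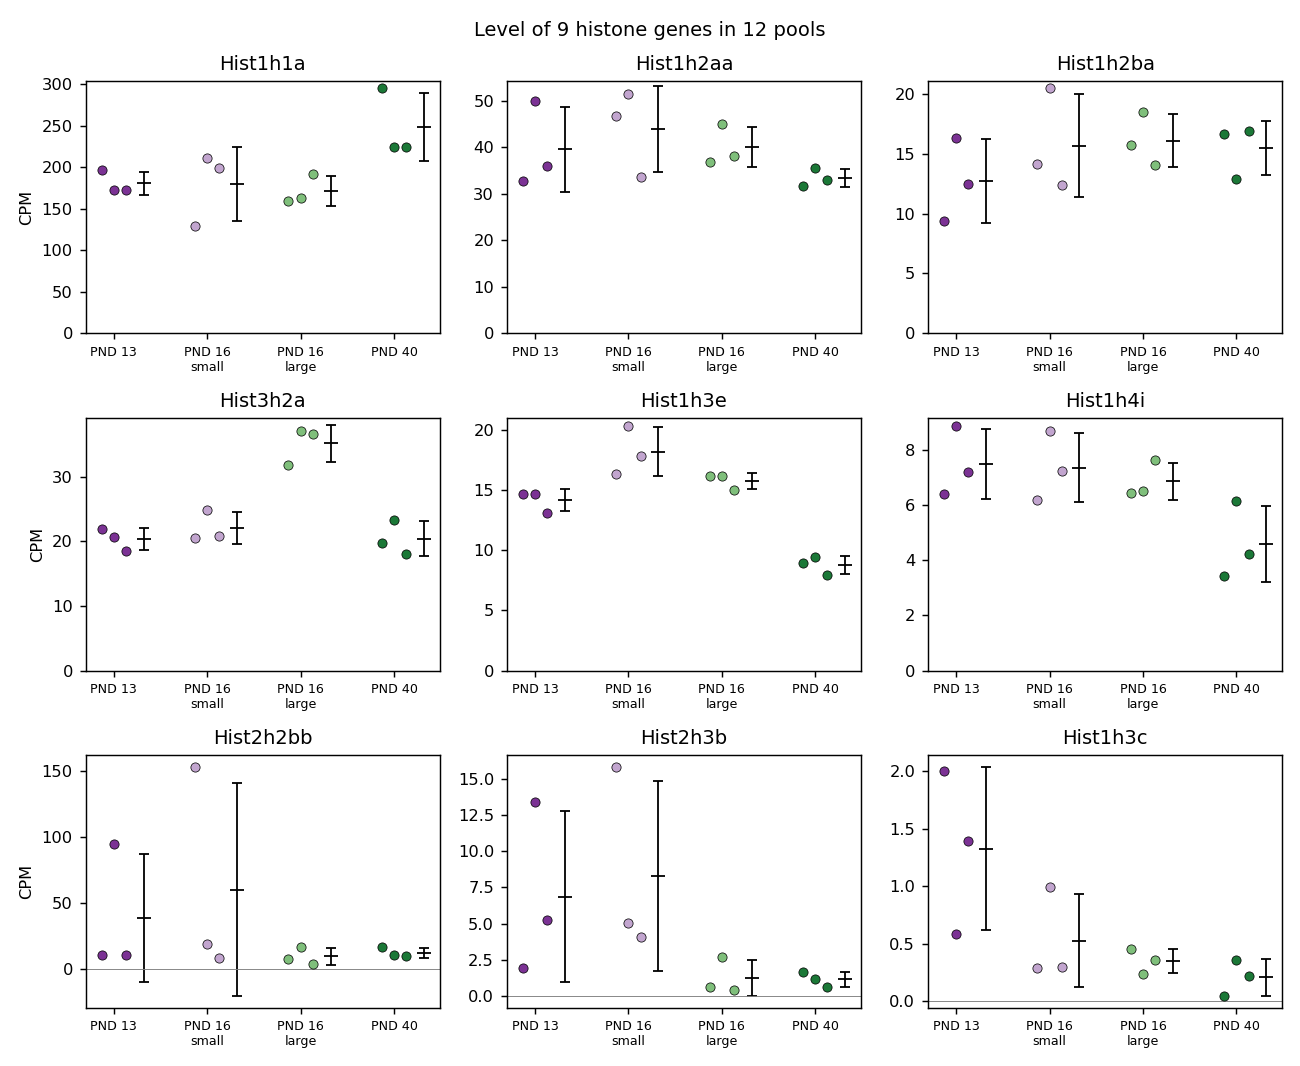
CPM (y axis) of 9 histone genes in the 4 cohorts (x axis), where points are pools and black bars show mean ± SD, n = 3. Hist3h2a sits at 31.9 to 37.0 CPM in PND 16 large and at 18.0 to 24.8 elsewhere, Hist1h3e at 7.97 to 9.44 CPM at PND 40 and at 13.1 to 20.4 elsewhere, and Hist2h2bb and Hist2h3b are highest in the same 2 non-competent pools.

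Competent and non-competent cohorts were compared with 6 pools in each group, which asks which histone genes differ between cohorts that carry these labels. In the study, a competent oocyte is able to resume meiosis and then to arrive at metaphase II. Competence is a label of the cohort, and no measurement of it is given for the sequenced pools. The groups also differ in age, since the youngest cohort is non-competent and the oldest is competent. The cohorts between them were separated by body weight. The parts of competence, age and weight in a change were not tested. Of 46 members tested, 3 were lower in competent pools and 0 were higher, which is 6.52% called, compared with 15% of all 13943 genes (11.2% lower and 3.78% higher). A gene was called at an adjusted p of at most 0.05 and a change of at least 1.5-fold. The share of members called was therefore no larger than the background. The median log2 fold change of the members was -0.39, with 39 of 46 below 0, compared with a median of -0.0046 and 50.4% below 0 for all genes. Markers of granulosa cells, described below, were lower in competent pools too, with a median log2 fold change of -1.08 over 24 genes. A further fit left out the 3 pools in which the summed level of these markers was highest. In the other 9 pools, 22 of 45 members were below 0 and their median was 0.01. These 3 pools, chosen after seeing the data, are all non-competent and held the highest level of 24 of the 46 members tested. Leaving them out was therefore bound to weaken the shift. In the non-competent pools left, the markers summed to 744, 880 and 1199 CPM, compared with 1015 to 1146 CPM in competent pools. The part of granulosa cells in the shift was not tested. With the marker level as a covariate, 31 of 46 were below 0 and the median was -0.20. By type, 3 of 5 H1, 9 of 11 H2A, 12 of 13 H2B, 7 of 8 H3 and 8 of 9 H4 genes had a value below 0. No member had groups without overlap, compared with 14.7% of all genes.

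Hist2h3b, an H3 gene of the chromosome 3 cluster (chr3:96268654-96269141), had the clearest decrease. Its level was 1.96, 13.4 and 5.24 CPM at PND 13, 15.8, 5.02 and 4.03 in PND 16 small, 0.614, 2.68 and 0.398 in PND 16 large, and 1.63, 1.20 and 0.588 at PND 40. Only 1 non-competent pool fell within the range of the competent pools. The log2 fold change was -2.68 ± 0.56 (adjusted p = 0.00304, edgeR), and the call remained in the 12 fits that each left out 1 pool and with DESeq2 and limma. Without the 2 pools of highest level it was -1.79 (adjusted p = 0.0144). A share of 20.3% of its windows was unique, and the annotated antisense transcript Gm20628 overlaps it. The library kit was directional, so the reads carry their strand, but whether they were counted by strand is not given in the sources used here. In the counts, reads of the antisense transcript may therefore be included.

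Hist1h3c encodes H3 and Hist3h2ba encodes H2B, and both passed the test less firmly. Hist1h3c was 2.01, 0.586 and 1.39 CPM at PND 13, 0.291, 0.995 and 0.297 in PND 16 small, 0.450, 0.237 and 0.358 in PND 16 large, and 0.0429, 0.358 and 0.221 at PND 40, from 1 to 42 reads per pool. The log2 fold change was -1.72 ± 0.59 (adjusted p = 0.0375). Hist3h2ba was 2.77, 6.72 and 3.93 CPM at PND 13, 2.28, 2.65 and 5.93 in PND 16 small, 1.64, 1.97 and 3.62 in PND 16 large, and 1.67, 2.27 and 1.62 at PND 40, with a log2 fold change of -0.92 ± 0.32 (adjusted p = 0.0376, edgeR). The groups overlapped for both genes. The call of Hist1h3c was lost without any of PND 13 replicates 1 and 3, PND 16 small replicate 2, PND 16 large replicates 2 and 3, and the 3 PND 40 replicates (log2 fold change -1.82 to -1.35, adjusted p from 0.0544 to 0.116). That of Hist3h2ba was lost without any of PND 13 replicates 2 and 3, PND 16 small replicate 3, PND 16 large replicates 1 and 2, and the 3 PND 40 replicates (-0.94 to -0.72, adjusted p from 0.0602 to 0.0921), and without the 2 pools of highest Hist2h2bb level, described below (-0.84, adjusted p = 0.0587).

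**Figure D3:**
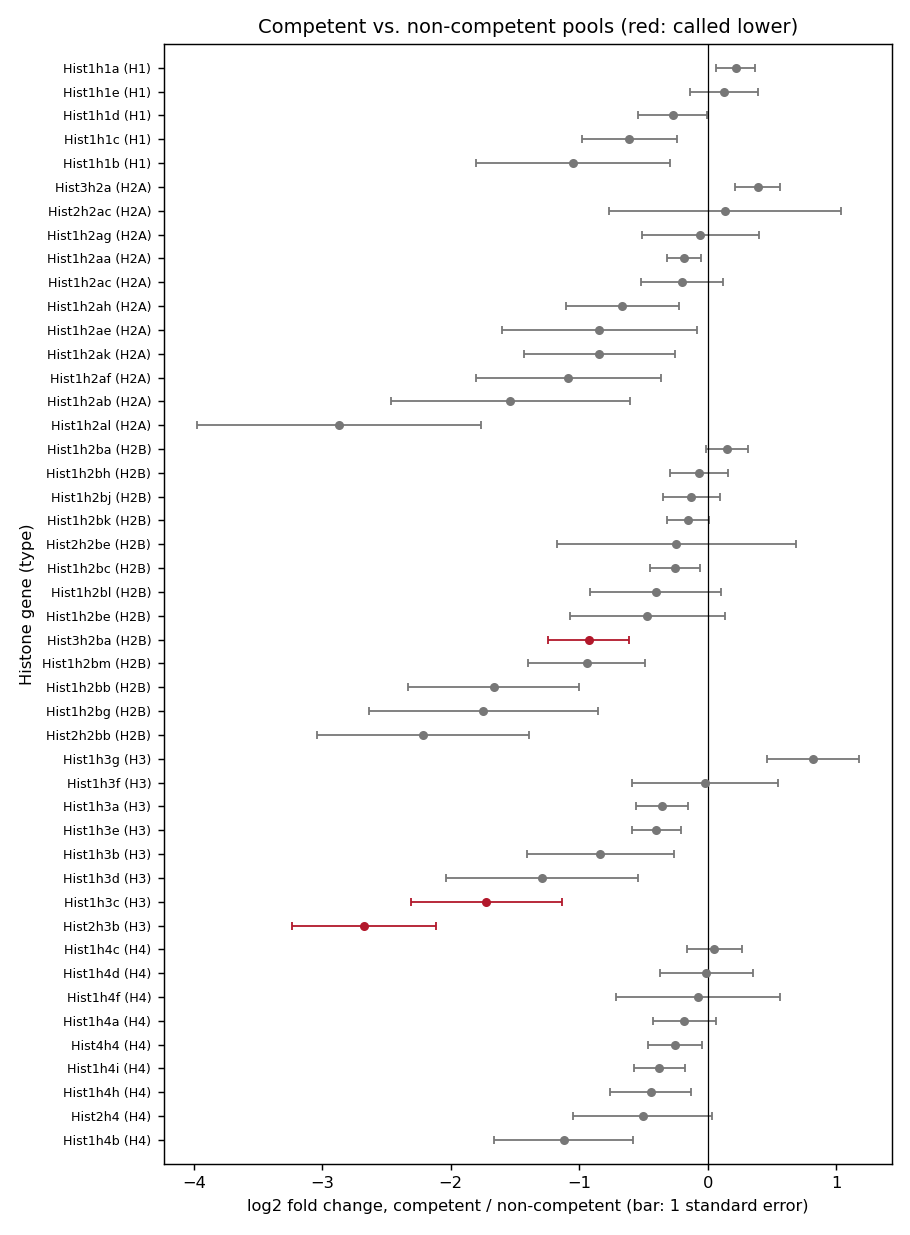
The log2 fold change of competent over non-competent pools (x axis, edgeR, bar of 1 SE) for the 46 histone genes tested (y axis, grouped by type), with called genes in red. The 39 genes below 0 include the 3 called genes Hist1h3c, Hist2h3b and Hist3h2ba, and Hist1h2al has the lowest value, -2.87.

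The counts of called members were small in the pairwise comparisons too. In PND 16 large vs. PND 16 small, 1 of 46 members was called, the increase of Hist3h2a, compared with 6.19% of all genes (1.43% higher and 4.76% lower). In PND 40 vs. PND 13, 6 members were lower and 0 higher, 13% called compared with 18.9% of all genes (6.31% higher and 12.6% lower). In PND 40 vs. PND 16 small, 4 were lower and 0 higher, 8.7% compared with 17.2% (6.89% higher and 10.3% lower). In PND 16 large vs. PND 13, Hist3h2a was higher and Hist1h2bc and Hist1h4b were lower, 6.52% compared with 13.3% (3.52% higher and 9.8% lower). In PND 40 vs. PND 16 large, Hist1h3e and Hist3h2a were lower, 4.35% compared with 3.66% (2.34% higher and 1.32% lower). In PND 16 small vs. PND 13, edgeR, DESeq2 and limma each called 0 members (edgeR called 0.373% of all genes, 0.179% higher and 0.194% lower), and 2 members had an unadjusted p under 0.05, compared with 19.2% of all genes. These comparisons share pools, so their calls are not independent. Groups did not overlap for 15 members in PND 40 vs. PND 16 large, 10 in PND 40 vs. PND 13, 9 in each of PND 40 vs. PND 16 small and PND 16 large vs. PND 13, 6 in PND 16 large vs. PND 16 small and 4 in PND 16 small vs. PND 13. The corresponding shares of all genes were 39.3, 50.8, 43.9, 45.5, 31.5 and 18.1%, all above the members' shares.

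Beyond Hist1h3e and Hist3h2a, the genes called lower at PND 40 encode H2B, H3 or H4. Hist1h4i, which encodes H4, was 3.43, 6.13 and 4.23 CPM at PND 40. It was 6.40, 8.87 and 7.21 at PND 13, 6.17, 8.67 and 7.24 in PND 16 small, and 6.42, 6.51 and 7.64 in PND 16 large. Its log2 fold change was -0.70 ± 0.24 vs. PND 13 (adjusted p = 0.0385) and -0.68 ± 0.24 vs. PND 16 small (adjusted p = 0.0487, edgeR). Both calls were lost without PND 40 replicate 1 or 3, and further without PND 13 replicate 2 or 3 and without PND 16 small replicate 2 or 3, with values from -0.73 to -0.53 and from -0.70 to -0.50. Hist1h2bm, an H2B gene, was 0.343, 0.478 and 0.478 CPM at PND 40 and 0.437, 2.32 and 2.37 in PND 16 small (-1.96 ± 0.59, adjusted p = 0.0234). That call was lost without PND 16 small replicate 2 or 3 or any PND 40 replicate (-2.04 to -1.66, adjusted p from 0.0602 to 0.0832). Hist1h2bg, also H2B, had 4, 1 and 2 reads at PND 40 and 27, 8 and 29 at PND 13 (-3.23 ± 1.17, adjusted p = 0.0475), and its call was lost without PND 13 replicate 1 or 3 or any PND 40 replicate (-3.90 to -2.88, adjusted p from 0.0809 to 0.158).

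Hist2h3b, Hist1h3c and Hist3h2ba were lower at PND 40 than at PND 13 as well, by -2.60 ± 0.90, -2.63 ± 0.80 and -1.27 ± 0.45 on the log2 scale (adjusted p = 0.0483, 0.0223 and 0.0431, edgeR). Hist2h3b was also lower than in PND 16 small (-2.87 ± 0.91, adjusted p = 0.0362). Against PND 13 the calls of Hist2h3b and Hist3h2ba were lost without PND 13 replicate 2 or 3 or any PND 40 replicate (-2.95 to -1.70 and -1.44 to -0.88). That of Hist1h3c was lost without PND 13 replicate 1 or 3 or PND 40 replicate 1 or 3 (-2.67 to -2.17). It was also lost without the 3 pools of highest granulosa marker level, which leaves 1 PND 13 pool that is assumed to vary like the other cohorts (-1.47, adjusted p = 0.413). Against PND 16 small the call of Hist2h3b was lost without PND 16 small replicate 1 or any PND 40 replicate (-3.22 to -1.995).

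Besides Hist3h2a, 2 members distinguished PND 16 large from PND 13. Hist1h2bc, an H2B gene, was 5.81, 6.55 and 6.61 CPM in PND 16 large and 10.3, 11.1 and 8.56 at PND 13 (-0.66 ± 0.21, adjusted p = 0.0351). At PND 40 it was 8.92 to 11.13 CPM, overlapping the range of PND 13. Its call was lost without PND 13 replicate 1 or 2 or any PND 16 large replicate (-0.71 to -0.59, adjusted p from 0.0699 to 0.113). Hist1h4b, which encodes H4, was 0.0409, 0.395 and 0.995 CPM in PND 16 large and 1.86, 3.09 and 3.07 at PND 13 (-2.47 ± 0.68, adjusted p = 0.017, edgeR), and its call was lost without PND 13 replicate 3 or PND 16 large replicate 2 (-2.36 in both, adjusted p = 0.0555 and 0.0623). An antisense transcript is annotated across Hist1h4b.

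The abundant members that were not called varied between pools of a cohort. Hist1h3f, an H3 gene, was 0.614, 10.8 and 4.82 CPM in PND 16 large and 22.2, 12.03 and 17.6 at PND 40, without overlap, but the log2 fold change of 1.68 ± 0.71 did not pass (adjusted p = 0.197). At PND 13 it was 11.2, 20.2 and 11.6 CPM and in PND 16 small 6.85, 11.1 and 8.01. Hist1h3a ranged from 4.42 to 11.7 CPM in non-competent and from 5.40 to 7.28 in competent pools (-0.35 ± 0.20, adjusted p = 0.203). Among H4 genes, Hist1h4c ranged from 6.30 to 12.9 and from 7.81 to 17.8 CPM (0.05 ± 0.21, adjusted p = 0.877) and Hist4h4 from 4.11 to 8.36 and from 3.82 to 7.54 CPM (-0.25 ± 0.21, adjusted p = 0.388, edgeR). Hist1h2bk, an H2B gene, ranged from 10.1 to 21.5 and from 11.6 to 16.8 CPM (-0.15 ± 0.17, adjusted p = 0.512).

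**Figure D4:**
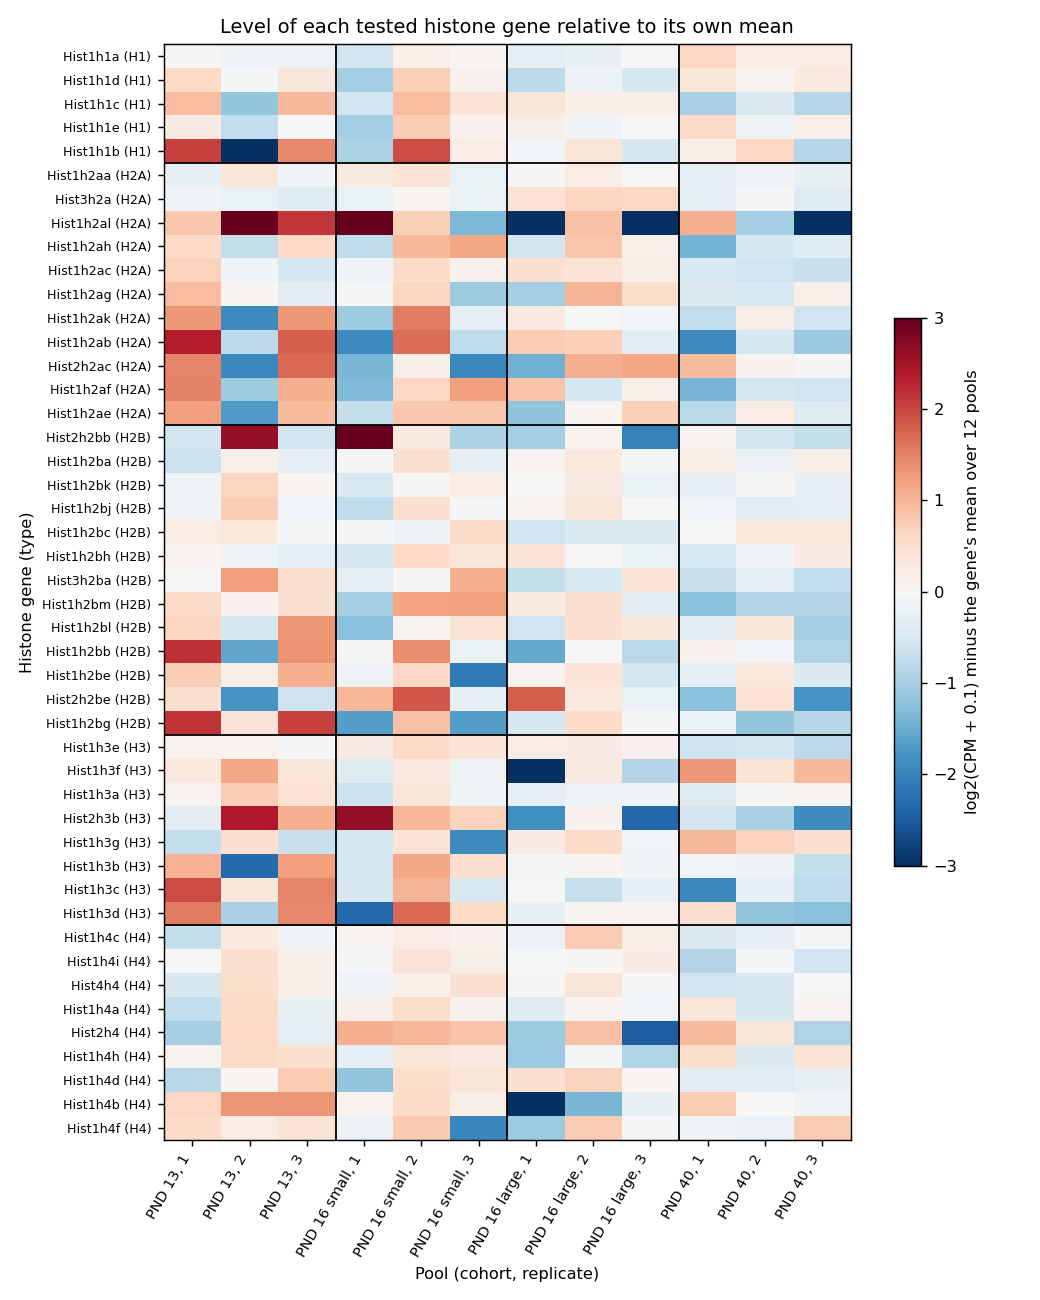
Heat map of log2(CPM + 0.1) minus the mean of each gene for the 46 histone genes tested (y axis, by type and then by mean CPM) in the 12 pools (x axis), where red is above and blue below the gene's mean. Many low-abundance genes are red in PND 13 replicates 1 and 3 and PND 16 small replicate 2, whereas Hist1h2al, Hist2h2bb and Hist2h3b are reddest in PND 13 replicate 2 and PND 16 small replicate 1.

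Within the non-competent cohorts, the pools fell apart along 2 patterns, described here after their values were seen. Hist2h2bb, an H2B gene of which every window was unique, was 94.2 CPM in PND 13 replicate 2 and 153 CPM in PND 16 small replicate 1. It was 10.2 and 10.2 CPM in the other PND 13 pools, 18.5 and 7.95 in the other PND 16 small pools, 7.45, 16.4 and 3.66 in PND 16 large, and 16.2, 10.4 and 9.26 at PND 40. Hist2h3b, its neighbour, was highest in the same pools, and so was Hist1h2al, with 25.1 and 24.5 CPM compared with 0.0367 to 8.92 in the other 10 pools. Hist1h2al is annotated as a processed pseudogene of H2A at chr13:51202727-51203065, and 32.4% of its windows were unique. In competent vs. non-competent pools the log2 fold change was -2.22 ± 0.83 for Hist2h2bb (adjusted p = 0.0647) and -2.87 ± 1.10 for Hist1h2al (adjusted p = 0.07, edgeR), and neither passed, but both were called lower with DESeq2 and without PND 16 small replicate 3. Hist1h2al was also called with limma and with the replicate number as a block, and Hist2h2bb with the granulosa marker level as a covariate. Without the 2 high pools these values were -0.16 and -1.47. Gm20628 overlaps Hist2h2bb on the opposite strand and Gm42743 on the same strand, and reads of these transcripts may be included in its count.

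In the other pattern, members were highest in PND 13 replicates 1 and 3 and PND 16 small replicate 2. Of the 46 members tested, 24 (52.2%) had their highest level in these 3 pools, compared with 24.1% of all genes. PND 13 replicate 2 and PND 16 small replicate 1 were highest for 13 members (28.3%, compared with 19.7% of all genes), and the 6 competent pools for 6 members (13%, compared with 42.3%). Hist1h1b, an H1 subtype gene, was 8.93, 5.81 and 8.39 CPM in the 3 pools, 0 and 1.02 CPM in PND 13 replicate 2 and PND 16 small replicate 1, and 1.10 to 3.23 CPM in the other 7. Hist1h2ab was 1.81, 1.19 and 1.09 CPM, then 0.117 and 0, and at most 0.532 in the others. Hist1h3d was 1.39, 1.27 and 1.52 CPM, then 0.156 and 0, and at most 0.652 in the others.

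Of 24 markers of granulosa cells, which surround the oocyte and divide during follicle growth, 17 were highest in 1 of these 3 pools, and 12 were higher in all 3 than in the other 9. The other 7, among them Kitl, Bmpr2, Serpine2, Esr2, Cdh2 and Cyp19a1, were highest elsewhere. Foxl2, a granulosa transcription factor, was 18.6, 20.02 and 10.8 CPM there, 0.391 and 1.02 CPM in PND 13 replicate 2 and PND 16 small replicate 1, and 1.73 to 3.11 in the other 7. Amh, which encodes anti-Müllerian hormone, was 33.5, 30.3 and 32 CPM, then 1.02 and 0.389, and 2.82 to 10.1 in the others. Inha, the inhibin alpha subunit, was 97.0, 143 and 130.5 CPM, then 2.34 and 4.42, and 11.4 to 20.7 in the others. The summed level of all 24 granulosa markers was 1333, 1377 and 1686 CPM in the 3 pools and 744 to 1199 in the other 9, and no marker was at 0 in all pools. In the pools with least Foxl2, PND 13 replicate 2 and PND 16 small replicate 1, the markers Bmpr2, Serpine2, Nr5a2 and Esr2 were still at 83.5 to 309 CPM. The summed level includes these markers and was 744 and 880 CPM in these 2 pools. Its log2 was the covariate, which therefore does not follow Foxl2, Amh and Inha alone. The part of granulosa cells in the histone levels was not tested, and in a pool fewer cells of a type cannot be told apart from less RNA per cell. With the granulosa marker level as a covariate, Hist2h3b, Hist3h2ba and Hist2h2bb were called in competent vs. non-competent pools and Hist1h3c was not (-1.45, adjusted p = 0.063). Without the 3 pools, the log2 fold change of Hist1h3c was -0.49 (adjusted p = 0.672), and those of Hist2h3b and Hist3h2ba were -3.22 and -1.22 (adjusted p = 0.0031 and 0.0353). Theca and stroma markers summed to 9.16 to 63.4 CPM and blood and vessel markers to 53.1 to 65.1 CPM per pool.

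**Figure D5:**
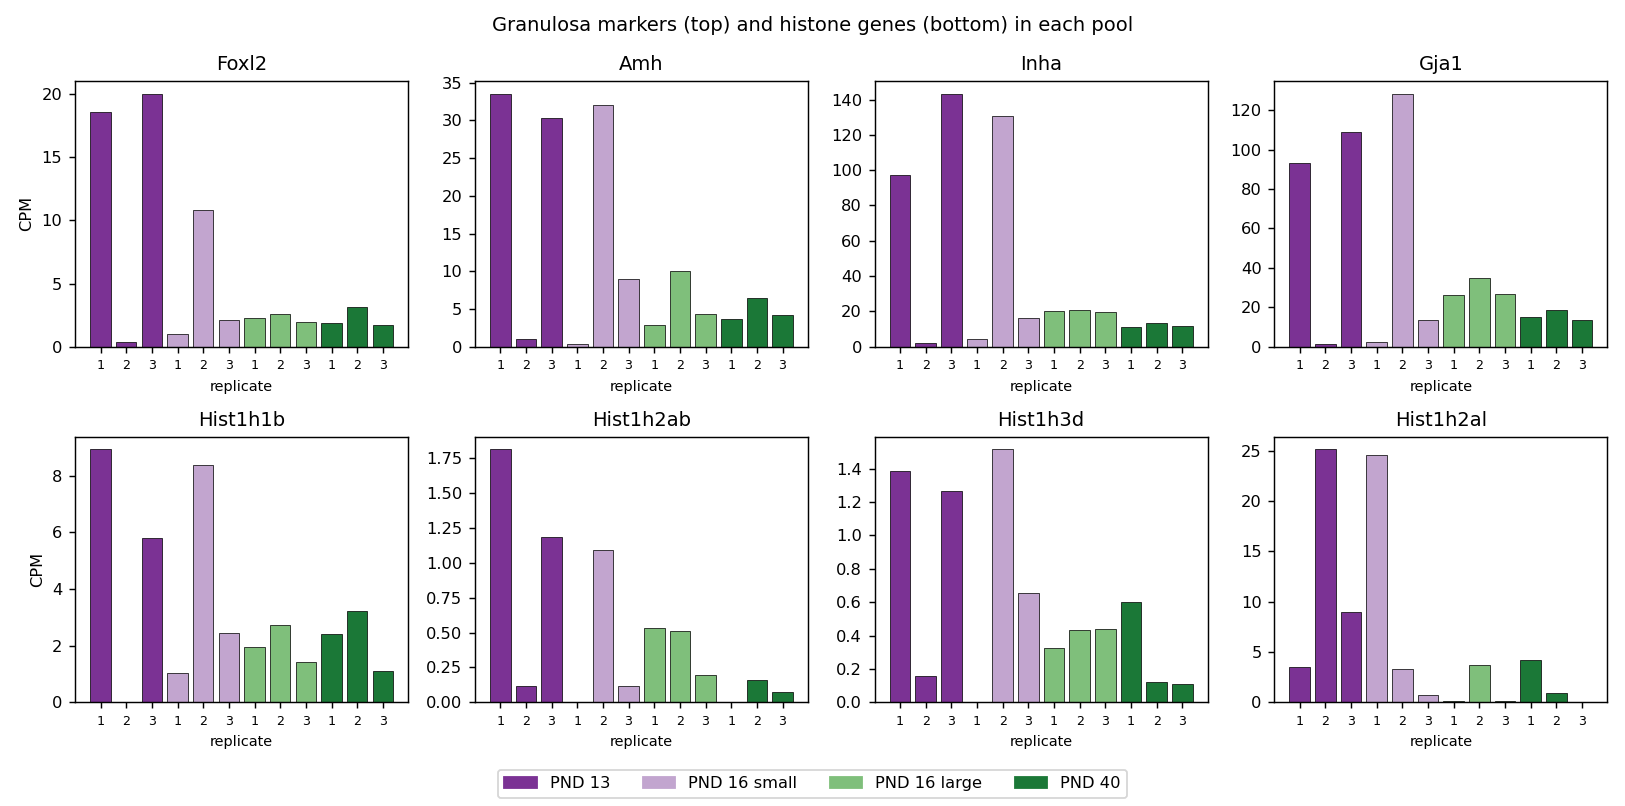
CPM (y axis) of the granulosa markers Foxl2, Amh, Inha and Gja1 (top) and of the histone genes Hist1h1b, Hist1h2ab, Hist1h3d and Hist1h2al (bottom) in the 12 pools (x axis, replicate number, coloured by cohort), where each bar is 1 pool and genes were chosen after their values were seen. Hist1h1b, Hist1h2ab and Hist1h3d are highest in PND 13 replicates 1 and 3 and PND 16 small replicate 2, as are the 4 markers, and Hist1h2al is highest in PND 13 replicate 2 and PND 16 small replicate 1.

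Genes that act on histones were counted in competent vs. non-competent pools from hand-made lists. Of 12 replacement histone genes tested, which are expressed outside S phase, H2afz (H2A.Z) was lower (-1.23 ± 0.33, adjusted p = 0.0119), which is 8.33% compared with 11.2% of all genes, and 0 were higher, with a median log2 fold change of 0.24. H1foo, the oocyte linker histone, was 1141 to 1354 CPM in non-competent and 1423 to 1582 in competent pools, without overlap, and its log2 fold change of 0.26 ± 0.06 (adjusted p = 0.00391) was under 1.5-fold. H3f3b, which encodes H3.3, differed by 0.36 ± 0.08 (adjusted p = 0.00473), also under 1.5-fold, and H3f3a by 0.33 ± 0.12, which did not pass (adjusted p = 0.0521, edgeR).

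Of 22 genes of histone mRNA processing and decay, 5 (22.7%) were lower and 0 higher, compared with 11.2 and 3.78% of all genes, with a median of -0.012. They were Cstf2 (-1.07 ± 0.10, adjusted p = 1.83e-05) and Cstf2t (-1.18 ± 0.12, adjusted p = 2.67e-05), which encode cleavage stimulation factor subunits, Lsm1 of the decapping complex (-1.06 ± 0.19), the cap-binding subunit Ncbp1 (-0.88 ± 0.16) and the Sm protein gene Snrpb (-0.82 ± 0.24, adjusted p = 0.017, edgeR). Slbp, whose product binds the stem-loop, was 366 to 390 CPM in the non-competent pools and 427 to 505 in the competent pools, without overlap, and its log2 fold change of 0.31 ± 0.06 (adjusted p = 9.88e-04) was under 1.5-fold. Of 25 histone chaperone genes, Npm3 was higher (0.78 ± 0.21, adjusted p = 0.0125) and 0 were lower. Of 28 genes of DNA replication and S phase, the transcription factor gene E2f2 was higher (0.65 ± 0.21, adjusted p = 0.0302), E2f3 was lower (-1.10 ± 0.34, adjusted p = 0.0251), and the median was 0.18. Of 24 granulosa markers, Fshr, Igfbp5, Kitl and Wt1 (16.7%) were lower and Cdh2 (4.17%) was higher, compared with the same shares of all genes. Hsd3b1 was lower among 8 theca and stroma markers, Nlrp5 was lower among 15 oocyte markers, and 0 of 2 blood and vessel markers were called.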

How the data were processed

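RNA-Seq of 12 oocyte pools (4 cohorts of 3) was re-analysed, with groups taken from the sample labels. The authors deposited raw counts of reads per gene and the log2 of these counts divided by a size factor per pool, plus 1. Per the labels, FastQC, STAR, HTSeq, DESeq, DESeq2 and HOMER were named with the build mm10. Their versions and the strand setting of counting are not given in the sources used here. Among the deposited symbols, 5 occur more than once and were kept as separate entries.

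Genes were kept by filterByExpr of edgeR 4.0.16 (minimum count 10), which left 13943, and scaled by TMM. For pairwise comparisons, 1 model of 4 cohorts was fitted by robust quasi-likelihood (glmQLFit, glmQLFTest), and 1 model of 2 groups for competence. All p-values are Benjamini-Hochberg adjusted over all genes tested, and calls needed a value no higher than 0.05 with a change of 1.5-fold or more. The SE was obtained as |log2 fold change| over the root of F. Per the study, each cohort drew on 3 mice for its 3 pools. Which animal gave which pool is not stated, so p-values measure the spread between pools. The fit was tested on simulated data. Alternatives used DESeq2 1.42.0, limma 3.58.1 on the deposited log2 values, other scalings and filters, and subsets of pools, in R 4.3.3. Other steps used Python 3.11.15, pandas 2.3.3, numpy 2.4.6 and matplotlib 3.10.9.

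Coordinates, exon lengths and transcripts were those of GENCODE M21 on GRCm38, which is mm10, and all 69 members matched by symbol. A 50-base window was unique if it occurred in the transcripts of no gene at another locus. The histone genes, lists, named genes and tests were chosen with earlier results of these data known. Named members were, in each type, the 3 with the highest mean CPM, every member called for competence, the 2 with the largest change in each direction of a pairwise comparison, and Hist1h1t, Hist1h2ba and Hist1h2aa. Hist1h1b, Hist1h2ab, Hist1h3d and Snrpb were named after their values were seen. From each list, called genes of the competence comparison were named (the 4 of smallest adjusted p in each direction), with Slbp, H1foo, H3f3a and H3f3b. The listed symbol Ars2 was not matched.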

Additional observations from a re-analysis of the deposited data

Results flagged for a closer look

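In 56 groups of 6 pools, the named members and the type sums in competent or non-competent pools, 3 had a pool set apart from the other 5 by Dixon's criterion, and chance gives about 1 in 20. Hist1h3f was 20.2 CPM in PND 13 replicate 2 and 6.85 to 11.6 CPM in the other non-competent pools. Hist3h2ba was 3.62 CPM in PND 16 large replicate 3 and 1.62 to 2.27 CPM in the other competent pools. The summed H4 level was 45.2 CPM in PND 16 large replicate 2 and 28.5 to 33.3 CPM in the other competent pools. Both high pools of Hist2h2bb lie in the same group of 6, where this criterion does not see a pair.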

How the results depend on the processing

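The counts of called members were small in the main fit and moved with the settings, and the cause was not tested. Shares of all genes called under each setting are not given in this section. Its counts therefore do not show whether histone genes moved apart from other genes. With DESeq2, 6 members were called in competent vs. non-competent, 3 in PND 16 large vs. PND 16 small and 5 in PND 16 large vs. PND 13. With limma, the latter comparisons gave 2 and 5. A contrast of cohort means gave 5 for competence. With only the pools compared, 6 were called in PND 16 large vs. PND 13, and also for PND 40 vs. PND 16 large 6. With the granulosa marker level as a covariate, 3 were called in PND 16 large vs. PND 16 small, 5 in PND 16 large vs. PND 13, and for PND 40 vs. PND 16 large 4. Without a filter on low counts, 2 were called in PND 40 vs. PND 16 small, and with a minimum count of 50, 29 members were tested.

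2 alternatives were chosen after seeing the data, and for these too the shares of all genes called are not given. Without PND 13 replicate 2 and PND 16 small replicate 1, 9 members were called for competence, 3 in PND 16 large vs. PND 16 small, 14 in PND 40 vs. PND 13, 8 in PND 40 vs. PND 16 small, 8 in PND 16 large vs. PND 13, and for PND 40 vs. PND 16 large 5. Without the 3 pools of highest granulosa marker level, 2 were called in PND 16 large vs. PND 16 small. Calls were lost without the former pools for Hist3h2ba (competence, and PND 40 vs. PND 13), both PND 40 calls of Hist2h3b, Hist1h4i vs. PND 13 and Hist1h2bc. They were lost without the latter for both calls of Hist1h3c and of Hist1h4i, Hist2h3b vs. PND 13, Hist1h2bm, Hist1h2bc and Hist1h4b. The log2 ratio of summed H2B levels was -0.75, and -0.17 without Hist2h2bb or without its 2 high pools. That of H1 was 0.15, and -0.35 without Hist1h1a.

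Leaving out 1 pool gave 1 to 5 calls for competence, 1 to 3 in PND 16 large vs. PND 16 small, 1 to 7 in PND 40 vs. PND 13, 1 to 5 in PND 40 vs. PND 16 small, 2 to 4 in PND 16 large vs. PND 13, always 2 in PND 40 vs. PND 16 large and 0 in PND 16 small vs. PND 13. With the replicate number as a block, 4 members were called for competence and 5 in PND 40 vs. PND 13. No sign of pairing by number was seen, as deviations of the 18 same-numbered pairs correlated at -0.442 to 0.0753, none above 0.1. Among pools of unlike number, PND 13 replicate 2 and PND 16 small replicate 1 correlated at 0.458. Such correlations cannot show that pools of 1 number shared no collection or preparation. Total-count scaling shifted the median of all genes by -0.13 in PND 16 large vs. PND 13 and -0.12 in PND 16 small vs. PND 13. Calls were also lost by limma (Hist1h3c for competence, Hist1h2bg and Hist2h3b vs. PND 13, Hist1h2bm), with the replicate block (Hist1h3c for competence, Hist1h2bg), without a filter (Hist1h2bg, both PND 40 calls of Hist2h3b, Hist1h4i vs. PND 16 small), with only the pools compared (both calls of Hist1h4i, Hist1h2bm), with the covariate (Hist1h3c for competence, and vs. PND 16 small Hist1h4i and Hist1h2bm) and by total counts (Hist1h4i vs. PND 16 small). The calls of Hist3h2a, of Hist1h3e and of Hist2h3b for competence remained under every alternative that gave a value. No value of a named member's call changed sign. Depth limits the members with few reads, and multi-mapped reads limit those with few unique windows.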
